A study of Mus musculus with 3 samples.

Results

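The 8365 regions described here are H3K4me3 regions of 2 to 5 kb that also carry both arginine 2 marks. They come from 11131 H3K4me3 regions of that width and 18461 H3K4me3 regions of any width. Reads were moved 75 bp in their 3-prime direction and counted in bins of 1 kb (build mm9). A bin was called for H3K4me3 at 25 reads or more, and called bins were joined across at most 1 uncalled bin. A region of 2 to 5 bins became a member when at least 1 of its bins held 15 or more reads of H3R2me2s and at least 1 held 16 or more reads of H3R2me2sK4me3. Members were thus chosen by the read counts of all 3 libraries, which are given below as a description with no test.

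All 3 libraries came from RAG2-/- Abelson-transformed pro-B cells of a strain written C57BL/7 in the labels, cultured without a treatment that the labels name. By the labels the groups differ in the antibody: 1 recognises histone H3 dimethylated symmetrically at arginine 2 (H3R2me2s), 1 recognises this together with lysine 4 trimethylation (H3R2me2sK4me3, here the combined mark) and 1 recognises H3K4me3. The first 2 antibodies were raised by the submitters and the third was a commercial one. There was 1 library per antibody and no input library was used here, so that differences between antibodies have no replicate check and unevenness that an input library would show is still in the counts.

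Trimethylated lysine 4 marks the nucleosomes next to the start sites of active genes and is laid down by SET1 and MLL enzyme complexes that contain WDR5. The symmetric arginine mark, made by enzymes such as PRMT5 and PRMT7, sits only 2 residues away on the same tail, and WDR5 can bind it. The plant homeodomain finger of RAG2, the recombinase subunit that these cells lack, binds trimethylated lysine 4, also where arginine 2 is symmetrically methylated. Pro-B cells are the stage at which the immunoglobulin heavy chain gene is assembled, and Abelson virus turns them into lines that grow in culture.

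The H3R2me2s library held 6923765 reads, the combined-mark library 7128852 and the H3K4me3 library 13898471. Background, the mean of bins more than 5 bins from any called bin, was 2.35, 1.86 and 2.98 reads per bin in that order. An annotation of build mm9 was not used here, so members are named by position, and neither their genes nor the marker genes of pro-B cells were read. The labels do not say whether the libraries came from separate cultures.

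The H3K4me3 library stood apart from the others in parts of the genome. In 41 of 2517 windows of 1 Mb, background relative to the genome was lower in both arginine libraries than in H3K4me3 by a factor under 0.75, and in none was it higher by as much. The windows held 34 members, and without them the median ratios between libraries given below came to 0.394, 0.810 and 0.483. On chromosome 2 a member at 101486001 to 101491000 had 47 H3R2me2s, 106 combined-mark and 357 H3K4me3 reads. It lies 1 bin from a stretch with very many reads in both arginine libraries that was not called for H3K4me3. That stretch, 101482001 to 101485000, held 1141, 1074 and 952 H3R2me2s reads in its bins, 1052, 1071 and 909 combined-mark reads and 20, 19 and 14 H3K4me3 reads, and is not part of the member. What sets the libraries apart there was not tested.

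Members covered 28852 bins, or 1.26% of the bins with a read in any library. They held 10.2% of all H3R2me2s reads, 21.5% of combined-mark reads and 25.8% of H3K4me3 reads. Of all called bins in the genome, 58.7% of those for H3R2me2s, 61.5% of those for the combined mark and 50.9% of those for H3K4me3 lay in members. The rule asks for a called bin of each mark, so that these shares are in part set by it.

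Within a member the reads stood far above background in each library. H3K4me3 ranged from 54 to 1961 reads per member with a median of 385, which is a median density of 38.5 times background. The combined mark ranged from 18 to 920 reads with a median of 159, or 25.3 times background. H3R2me2s ranged from 16 to 366 reads with a median of 73, or 9.34 times background. The lowest density was in H3R2me2s, whose 5th to 95th percentiles spanned 4.76 to 18.3 times background against 17.7 to 71.7 times for H3K4me3.

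How often a region of 2 to 5 kb was a member followed its H3K4me3 reads closely. Members made up 75.2% of these regions and 58.9% of regions of any width held called bins of both arginine marks. Among regions with 50 to 74 H3K4me3 reads, 19 of 762 were members, or 2.49% (exact 95% Clopper-Pearson interval 1.51 to 3.87). The share was 11.6% from 75 to 99 reads, 37.8% from 100 to 149, 71.0% from 150 to 199 and 94.0% from 200 to 299. From 300 to 399 reads, 1427 of 1428 regions were members, and above that all 2210 regions with 400 to 599 reads and all 1773 with 600 or more. PCR copies could not be told from separate molecules, so intervals on ratios of reads cover only the error of counting. Intervals on shares treat regions as independent draws. They cover neither the counting error of the reads within a region nor an error between libraries.

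**Figure D1:**
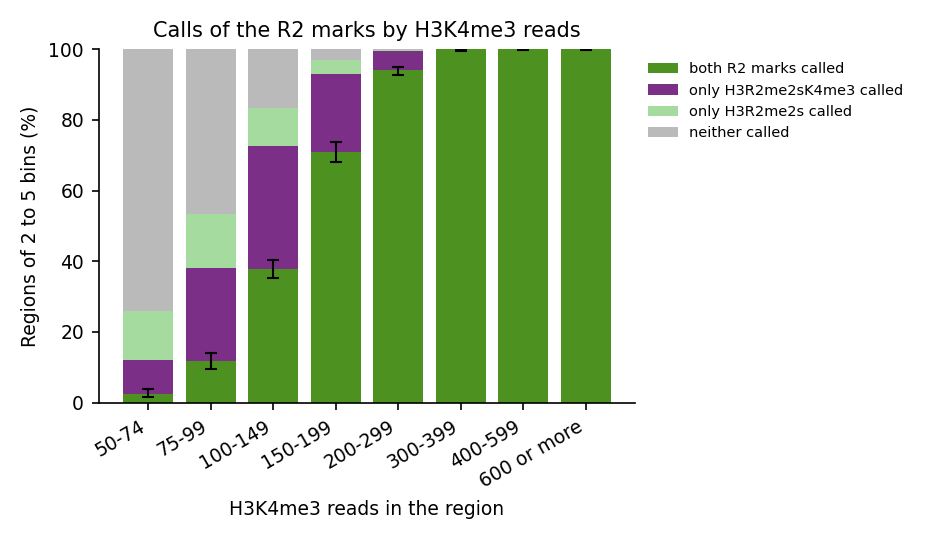
Share of H3K4me3 regions of 2 to 5 bins (y axis, percent) in which both arginine marks, only 1 of them or neither was called, by H3K4me3 reads in the region (x axis). Black bars are exact 95% intervals of the share with both marks, which rises from 2.49% at 50 to 74 reads to 99.9% at 300 to 399 reads.

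The regions outside the class lay mostly at low H3K4me3. The 1097 regions with the combined mark only had a median of 123 H3K4me3 reads, the 434 with H3R2me2s only had 94 and the 1235 with neither had 77, against 385 in members. The non-member with most H3K4me3 was at chromosome 17, 46277001 to 46282000, with 305 H3K4me3 reads, 100 combined-mark reads and 52 H3R2me2s reads. Its highest H3R2me2s bin held 13 reads, 2 short of the limit. At the other end, the member with the fewest H3K4me3 reads was at chromosome 13, 75678001 to 75680000, with 54, 28 and 31 reads in the same order.

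The limits cut through a continuous range of levels. For H3R2me2s, the 237 members whose highest bin stood at exactly 15 reads had medians of 28 H3R2me2s, 46 combined-mark and 151 H3K4me3 reads. The 240 regions with a combined-mark call whose highest H3R2me2s bin stood at 14 reads had 26, 44 and 143. For the combined mark, the 85 members at exactly 16 reads had medians of 32, 30 and 123 reads, and the 68 regions at 15 reads with an H3R2me2s call had 33, 28 and 110. Regions just inside and just outside were thus alike in all 3 libraries, and a mark that was not called was not shown to be absent.

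Width went with membership and with level. Of regions of 2, 3, 4 and 5 bins, 46.6%, 82.5%, 91.8% and 96.2% were members, in numbers of 1658, 2790, 2419 and 1498. A wider region has more bins in which a mark can reach its limit, so that this rise is in part set by the rule. Median H3K4me3 density rose from 31.8 times background in members of 2 bins to 42.8 times in those of 5 bins. The combined mark rose from 18.3 to 29.9 times and H3R2me2s from 7.43 to 10.6 times.

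The 3 members whose counts were closest to the medians show what a typical one looks like. At chromosome 15, 57524001 to 57527000, the successive bins held 16, 24 and 33 H3R2me2s reads, 35, 62 and 60 combined-mark reads and 73, 146 and 174 H3K4me3 reads. All marks were lowest in the first bin there, and the combined mark was nearly level over the remaining bins. At chromosome 12, 113930001 to 113933000, the bins held 15, 33 and 25 H3R2me2s reads, 13, 103 and 47 combined-mark reads and 73, 195 and 121 H3K4me3 reads. At chromosome 4, 84530001 to 84533000, they held 12, 53 and 9 reads, 30, 122 and 10 reads, and 38, 316 and 35 reads in the same order of marks. In these last 2 members the middle bin was the highest in every library.

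The members with most H3K4me3 reads were strong in both arginine marks. Chromosome 2, 43604001 to 43608000, had 1961 H3K4me3, 889 combined-mark and 366 H3R2me2s reads. Chromosome 12, 88782001 to 88787000, had 1735, 920 and 343 reads. The next were chromosome 5, 86500001 to 86504000, with 1702, 838 and 270 reads, and chromosome 16, 25175001 to 25180000, with 1646, 679 and 284. Chromosome 1, 7077001 to 7082000, had 1569, 706 and 262 reads. The first 2 of these held the most H3R2me2s of the 5, and in the chromosome 2 member the counts of distinct read positions were 1491, 802 and 326.

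Inside members, the calls of the 2 arginine marks were nested rather than spread apart. Every bin called for H3R2me2s was also called for the combined mark in 7669 members, or 91.7% (91.1 to 92.3). The 2 marks were called in exactly the same bins in 4076 members, the combined mark in more bins in 3621 and H3R2me2s in more bins in 414. H3R2me2s was called in a single bin in 2705 members and the combined mark in 1387. In 852 members, or 10.2%, every bin was called in all 3 libraries. The depth and the limits of the 3 libraries differ, so that these counts describe calls and not the reach of the marks.

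A small set of members carried the 2 arginine marks only in different bins. There were 138 of them, or 1.65% (1.39 to 1.95), so they satisfy the rule without any bin called for both. They were weak, with medians of 151 H3K4me3, 40 combined-mark and 35 H3R2me2s reads against 390, 161 and 75 in the other members. An uncalled H3K4me3 bin lay inside 356 members.

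The highest bins of the 3 marks usually coincided. The bin with most H3R2me2s was the bin with most H3K4me3 in 84.2% of members (83.4 to 84.97), and for the combined mark in 89.0% (88.3 to 89.7). The highest bins of both arginine marks coincided in 87.2%. The share fell in wide members, from 85.9% at 2 bins to 77.9% at 5 bins for H3R2me2s and from 90.3% to 84.9% for the combined mark.

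The combined mark was the most concentrated of the 3 along the member. In members of 3 bins, with bins ranked by H3K4me3, the first bin held 62.3% of combined-mark reads, 57.8% of H3K4me3 reads and 57.5% of H3R2me2s reads. The last bin held 10.8%, 13.6% and 14.3%. In members of 5 bins the first bin held 48.0%, 43.9% and 43.2% and the last 3.50%, 4.76% and 6.10%. Background reads are included in these shares and weigh most on H3R2me2s, the library with the lowest enrichment.

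Past the edges all marks dropped within 1 bin. The mean H3K4me3 density was 41.7 times background inside members, 4.77 times in the first flanking bin and 3.26 times in the second. The combined mark went from 28.5 to 2.96 and 2.28 times, and H3R2me2s from 10.4 to 2.32 and 2.01 times. Net of genome-wide background, the first flanking bins stood at 7.13% of the inner level for the combined mark, 9.28% for H3K4me3 and 14.1% for H3R2me2s. Local background, given next, was above the genome-wide value and weighs most on H3R2me2s, the library with the lowest enrichment. Shares net of local background were not computed, so that the order of these values is not a measure of reach. The edges were set on H3K4me3 reads, so that its own drop is in part a product of the rule. A flanking bin was called for H3R2me2s in 142 members and for the combined mark in 78.

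The wider surroundings of members were themselves above the genome-wide background. Uncalled bins within 50 kb, more than 2 bins from any called bin, had medians of 1.55, 1.51 and 1.60 times background in the order H3R2me2s, combined mark, H3K4me3. This local background was lower than the flanking bins and nearly equal between libraries. It was used below in place of the genome-wide value for net levels, and 6 members with fewer than 20 such bins had none.

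Members lay farther from other H3K4me3 regions than the remaining regions of 2 to 5 kb did. Another H3K4me3 region lay within 5 kb of 1569 members, or 18.8% (17.9 to 19.6). The shares were 23.0% (20.5 to 25.6) for regions with the combined mark only, 30.7% (28.1 to 33.3) for those with neither mark and 40.1% (35.4 to 44.9) for those with H3R2me2s only. The median gap to the nearest region was 18 kb for members and 15, 12 and 8 kb for those 3 classes. The classes also differ in H3K4me3 level, and its part in these distances was not tested.

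Scaled to the mapped reads of each library (CPM), the marks differed least in proportion between members for H3R2me2s and H3K4me3. For H3R2me2s to H3K4me3 the median CPM ratio was 0.394 (exact 95% interval of the median 0.393 to 0.397), with 5th and 95th percentiles of 0.290 and 0.537. Scaled to background instead of mapped reads, this median was 0.249. For the combined mark to H3K4me3 it was 0.810 (0.806 to 0.814), with percentiles of 0.487 and 1.02. For H3R2me2s to the combined mark it was 0.483 (0.480 to 0.485), with percentiles of 0.367 and 0.912. These intervals cover the spread over members, not an error between libraries, and the ratios are not shares of marked histone tails, since the antibodies were not calibrated.

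Part of the spread was counting error. The SD of the log2 ratio was 0.28 for H3R2me2s to H3K4me3, where counting alone gives 0.20. It was 0.32 against 0.16 for the combined mark to H3K4me3 and 0.39 against 0.23 for H3R2me2s to the combined mark. Taking out the counting part left an SD of 0.20, 0.28 and 0.32. Across members, Spearman's rho between read densities was 0.912, 0.952 and 0.924 in that order, as a description over 8365 regions that share libraries and depth.

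Few members left the common range. A ratio of H3R2me2s to H3K4me3 at least 1.5-fold above the median of all H3K4me3 regions (0.407) was found in 157 members, or 1.88%, where 12.2% of all regions passed, and one at least 1.5-fold below it in 202, where 7.06% passed. The combined mark to H3K4me3 was that much higher in 174 members, near the 1.82% of all regions, and lower in 338, or 4.04%, where 18.6% passed. H3R2me2s to the combined mark was that much higher in 811 members, or 9.70%, where 19.6% passed, and lower in 152, near the 2.11% of all regions. Members also hold more reads than the other regions do.

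The proportions changed with the strength of H3K4me3, and more for the combined mark than for H3R2me2s. Members were ranked by density in randomly drawn H3K4me3 reads, divided into 5 equal classes and measured on the rest, so that the same reads did not rank and measure. Median H3K4me3 went from 20.7 to 63.6 times background over these classes. Net of local background, the median combined mark per H3K4me3 rose at each step, from 0.588 (0.575 to 0.599) through 0.724, 0.792 and 0.854 to 0.898 (0.892 to 0.904). The median for H3R2me2s was 0.332 (0.326 to 0.338) in the weakest class, 0.318 in the second and 0.366 (0.362 to 0.369) in the strongest. Over the first to the last class the sum of net H3R2me2s per net combined mark went from 0.551 to 0.408.

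The choice of background and the limits bear on the weak end. With the genome-wide background, the sums for H3R2me2s were 0.376, 0.345, 0.355, 0.367 and 0.377, so that the first class stood as high as the last, where local background gave 0.335 and 0.367. For the combined mark both backgrounds gave nearly the same rise, from 0.622 to 0.901 (genome-wide) and from 0.608 to 0.900 (local). With 1 read kept per position and strand and local background, the combined mark rose from 0.620 to 0.970. H3R2me2s in that setting was 0.343 in the first class, 0.3345 in the second and 0.399 in the last. In the weakest class, 74.0% of members had H3R2me2s called in only 1 bin, against 5.08% in the strongest. Regions of low H3K4me3 count as members only where their arginine marks reach the limits, so that this class is selected for high ratios.

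**Figure D2:**
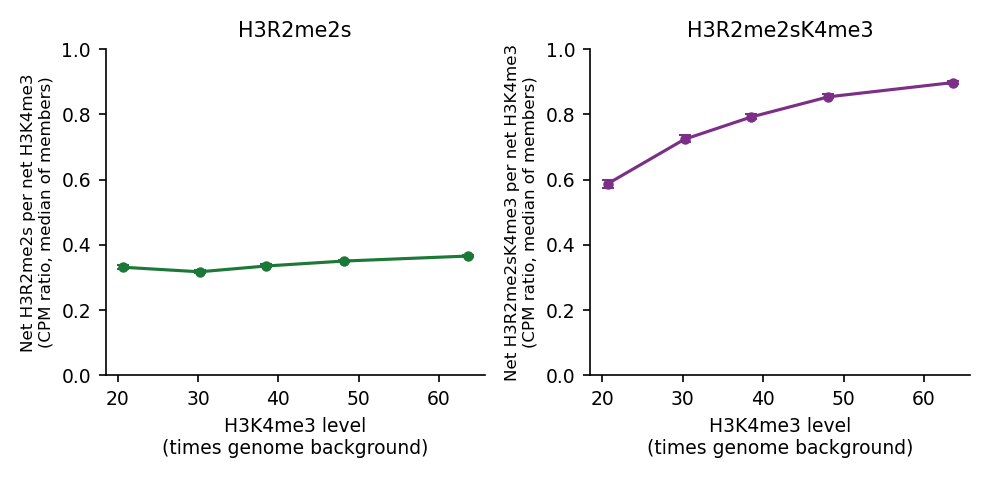
Net H3R2me2s (left) and net combined mark (right) per net H3K4me3 as CPM ratios on the y axis, against the median H3K4me3 level in multiples of genome background on the x axis, for 5 classes of 1673 members. Points are medians net of local background with exact 95% intervals of the median, and the combined mark climbs from 0.588 to 0.898 while H3R2me2s stays between 0.318 and 0.366.

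Wider members had relatively more combined mark. Its median CPM ratio to H3K4me3 was 0.713 (0.701 to 0.727) at 2 bins, 0.807 at 3, 0.833 at 4 and 0.849 (0.842 to 0.856) at 5 bins. The ratio of H3R2me2s to H3K4me3 stayed between 0.392 and 0.402 over the same widths. Since wide members were also the stronger ones, width and level were not told apart here.

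Median ratios of members on chromosome X lay outside the range of the autosomal medians. The 254 members there had a median CPM ratio of the combined mark to H3K4me3 of 0.892 (0.867 to 0.905), while the 19 autosomal medians ran from 0.781 on chromosome 13 to 0.824 on chromosome 2. H3R2me2s to the combined mark was 0.413 (0.405 to 0.425), below the autosomal range of 0.464 to 0.496. H3R2me2s to H3K4me3 was 0.367 (0.357 to 0.378), below the autosomal range of 0.382 to 0.405. Its interval overlaps those of chromosome 13 (0.375 to 0.393) and chromosome 18 (0.370 to 0.396). The share of regions that were members, 77.0%, lay inside the autosomal range of 68.9% to 79.0%.

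**Figure D3:**
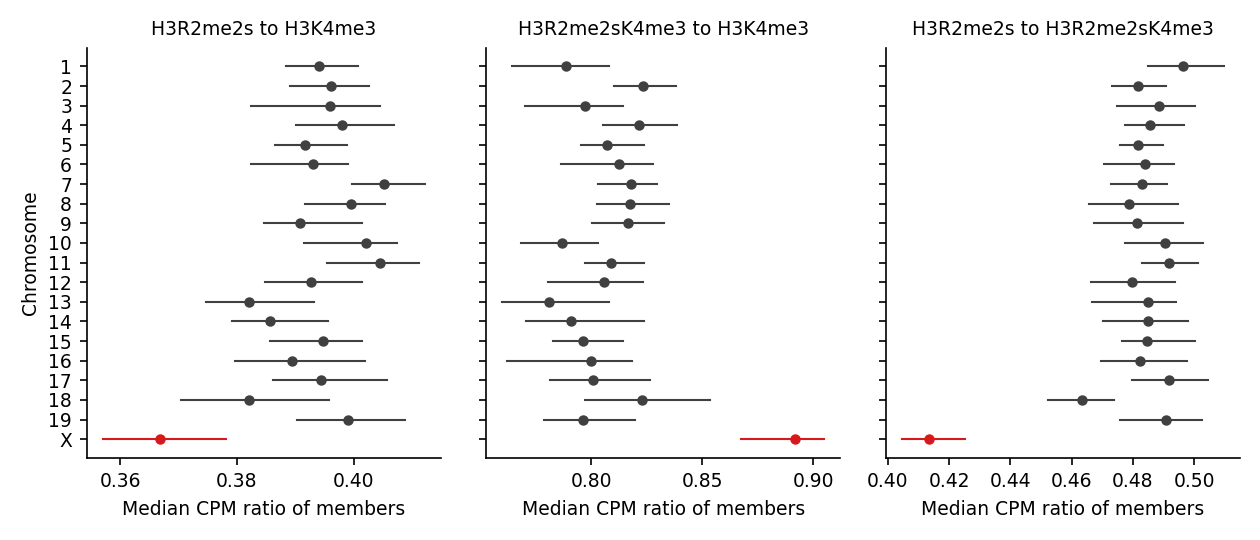
Median CPM ratio of members on each chromosome (x axis) for the 3 pairs of libraries, with exact 95% intervals of the median as lines and chromosome X in red; chromosome Y, with 8 members, is left out. The median of chromosome X lies outside the range of the 19 autosomal medians in all 3 panels, at 0.367, 0.892 and 0.413.

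Background differed on chromosome X in the same way in the 3 libraries. Local background around X members was 0.842, 0.839 and 0.865 times the genome-wide level for H3R2me2s, the combined mark and H3K4me3, where the autosomal medians lay between 1.44 and 1.73. Net of local background and at matched H3K4me3, the difference in H3R2me2s to H3K4me3 was no longer seen: at 100 to 150 H3K4me3 reads per bin it was 0.336 (0.316 to 0.354) in 103 X members and 0.339 (0.335 to 0.342) in 2836 autosomal ones. The combined mark stayed higher, at 0.890 (0.867 to 0.931) against 0.810 (0.805 to 0.818). At 60 to 100 reads per bin it was 0.825 (0.792 to 0.869) against 0.683 (0.675 to 0.693), and at 150 to 250 reads 0.916 (0.883 to 0.976) against 0.886 (0.881 to 0.891), where the intervals overlap.

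Because background on chromosome X was low in every library, X members were also set beside autosomal members with 2 times the H3K4me3 reads per bin, and the order for the combined mark then turned, with X members lower and their intervals overlapping those of the autosomal ones. Autosomal members at 120 to 200 reads per bin had 0.857 (0.852 to 0.862), beside 0.825 for X members at 60 to 100, and those at 200 to 300 reads had 0.917 (0.909 to 0.925), beside 0.890 for X members at 100 to 150. For H3R2me2s to the combined mark, X members had 0.386 (0.369 to 0.414) and 0.377 (0.361 to 0.393), and these autosomal members 0.416 and 0.408. H3R2me2s to H3K4me3 was lower on X here, at 0.332 (0.305 to 0.352) beside 0.3525 (0.349 to 0.355), where the intervals overlap. In the stronger members it was 0.336 (0.316 to 0.354) beside 0.372 (0.367 to 0.378), with intervals apart. The differences in both ratios to H3K4me3 thus depended on which autosomal members X members were set beside. H3R2me2s to the combined mark had the lower value on X in both comparisons. Regions outside the class differed too: in those with the combined mark only, the combined mark to H3K4me3 was 0.718 in 40 regions on X and 0.608 in 1057 on autosomes, and H3R2me2s to the combined mark 0.423 and 0.579. The difference on X was therefore not particular to members. Chromosome Y had 8 members, and all 8 of its regions of 2 to 5 kb qualified.

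The members with the most extreme proportions were of different kinds. At chromosome 1, 24619001 to 24621000, there were 180 H3R2me2s, 98 combined-mark and 55 H3K4me3 reads, which gave the highest of all 3 ratios. H3R2me2s to H3K4me3 was 6.57 (4.83 to 9.06), the combined mark to H3K4me3 3.47 (2.47 to 4.93) and H3R2me2s to the combined mark 1.89 (1.47 to 2.44). Its 2 bins were level, with 77 and 103, 48 and 50, and 27 and 28 reads, and its local background was 0.769, 0.748 and 0.803 times the genome-wide level. In this member H3K4me3 stood only just above its limit while H3R2me2s was far above its own.

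A pair of members on chromosome Y came next for H3R2me2s to H3K4me3. Chromosome Y, 1788001 to 1792000, had 147 H3R2me2s, 119 combined-mark and 172 H3K4me3 reads, a ratio of 1.72 (1.37 to 2.15). Its 4 bins held 24, 38, 48 and 37 reads of H3R2me2s and 43, 46, 48 and 35 of H3K4me3, so that it was flat where typical members were peaked. Chromosome Y, 2876001 to 2878000, had 184, 151 and 233 reads and a ratio of 1.59 (1.30 to 1.93). Local background was 0.442 to 0.504 times the genome-wide level at the first of the pair and had no value at the second.

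The lowest H3R2me2s relative to H3K4me3 was in members with 337 to 524 H3K4me3 reads, on either side of the members' median of 385. Chromosome 11, 85270001 to 85272000, had 29 H3R2me2s reads beside 337 H3K4me3 reads, a ratio of 0.173 (0.114 to 0.253). Chromosome 2, 170030001 to 170032000, had 32 beside 339, a ratio of 0.190 (0.128 to 0.273). Chromosome X, 104284001 to 104288000, had 55 beside 524, a ratio of 0.211 (0.157 to 0.279). In these members the CPM ratio of the combined mark to H3K4me3 lay between 0.500 and 0.711, so it too was below its median of 0.810. The chromosome 2 member lies between 2 of the windows in which the H3K4me3 library stood apart.

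Other members differed in the combined mark. After the chromosome 1 member, it was highest relative to H3K4me3 at chromosome 2, 118424001 to 118427000, with 315 beside 466 reads (1.32, 1.14 to 1.52), and at chromosome 3, 123209001 to 123213000, with 687 beside 1114 reads (1.20, 1.09 to 1.32). In the first of these, 1 bin held 290 of the 315 combined-mark reads and 403 of the 466 H3K4me3 reads. It was lowest at chromosome 6, 15575001 to 15577000, with 30 beside 218 reads (0.268, 0.177 to 0.394), at chromosome 14, 8946001 to 8949000, with 29 beside 207 (0.273, 0.179 to 0.404), and at chromosome 9, 64677001 to 64680000, with 42 beside 267 (0.307, 0.216 to 0.426). H3R2me2s in those 3 members was 23, 42 and 50 reads, so that in the last 2 it outnumbered the combined mark.

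Between the arginine marks, H3R2me2s was high for its combined mark at chromosome 3, 37667001 to 37670000, with 63 beside 35 reads (1.85, 1.21 to 2.89), and at chromosome 12, 56117001 to 56121000, with 74 beside 46 (1.66, 1.13 to 2.45). In the first, H3R2me2s was level over the bins, with 21, 19 and 23 reads, while H3K4me3 peaked in the middle bin with 29, 82 and 32. It was lowest at chromosome 5, 135113001 to 135116000, with 56 beside 247 (0.233, 0.171 to 0.313), at chromosome X, 103222001 to 103224000, with 43 beside 182, and at chromosome 13, 97157001 to 97160000, with 69 beside 271. The named extremes were picked out of 8365, and their intervals do not allow for that choice.

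At finer scale, the mean profile over members showed a series of peaks, read here as nucleosome positions. Single members were not examined for such peaks. Reads were counted in steps of 10 bp around the H3K4me3 summit, which was placed on randomly drawn H3K4me3 reads smoothed with an SD of 50 bp, and each member was turned so that its side with more of those reads came to the right. H3K4me3 is shown from the remaining reads. Further peaks were searched within 60 bp of multiples of an assumed repeat of 180 bp, so that near-regular steps are in part set by the search. In all 3 libraries the mean profile had a narrow central peak and a peak on either side of it. On the heavier side H3R2me2s peaked at 180, 350, 540 and 730 bp, and H3K4me3 at 180, 350, 540 and 700 bp. The combined mark peaked at 180, 350 and 730 bp, with no separate maximum near 540 bp.

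The first peak on each side lay at a like place in members of every width. Over the 4 width classes that of the heavier side was at 180 bp in each library, and that of the lighter side at 170 to 180 bp for H3R2me2s and H3K4me3 and 160 to 170 bp for the combined mark. Farther peaks were not found in every width class. On the lighter side H3R2me2s had further peaks at 330, 530 and 710 bp and H3K4me3 at 330, 500 and 700 bp, while the combined mark had only 1, at 720 bp. Strands were offset within members by 142 bp in H3R2me2s, 141 bp in the combined-mark library and 131 bp in H3K4me3, near the length of DNA on a nucleosome, so that a move of 75 bp placed most reads near its middle.

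**Figure D4:**
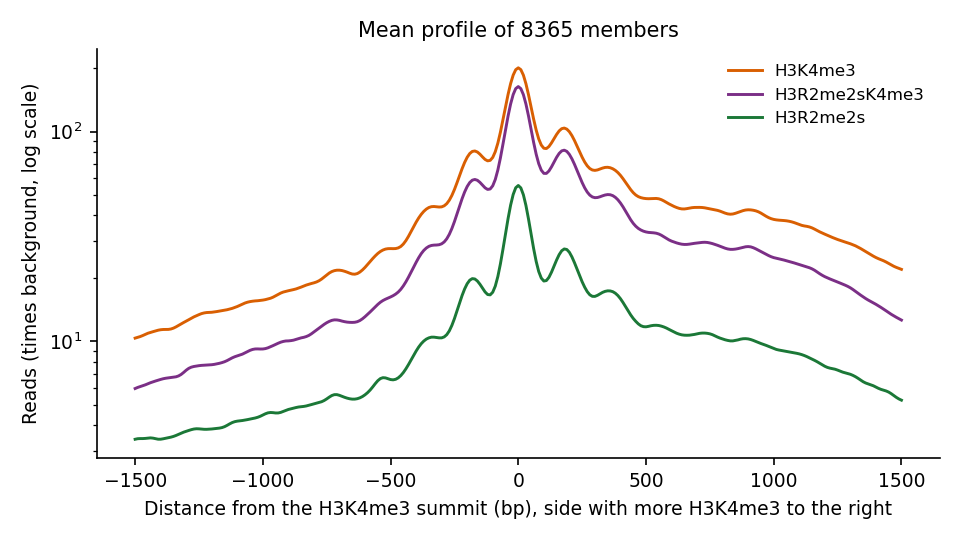
Mean reads of the 8365 members in multiples of genome background (y axis, log scale) by distance from the H3K4me3 summit in bp (x axis), with the side of more H3K4me3 to the right. The 3 libraries share a central peak and a neighbour near 180 bp, and the right-hand side stays higher than the left out to 1500 bp.

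The central peak was the highest in each mean profile. Members were aligned on their H3K4me3 summit, so that a high centre is in part a product of the alignment. The centre stood at 201 times background for H3K4me3, 164 times for the combined mark and 55.3 times for H3R2me2s. The next peak on the heavier side reached 103.9, 81.5 and 27.6 times, or 0.517, 0.498 and 0.498 of the centre. The dip in between, at 100 to 110 bp, stood at 0.703 of that next peak in the H3R2me2s profile, 0.775 in that of the combined mark and 0.798 in that of H3K4me3, deepest in the first. Set against the level at 180 bp, with 1 read per position and strand, the dip stood at 0.734, 0.802 and 0.857, in the same order, and with reads not moved at 0.905, 0.975 and 0.992.

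From the central nucleosome outward the combined mark lost ground to H3K4me3. In windows of 110 bp on the peaks, its CPM ratio to H3K4me3 was 0.978 (0.972 to 0.983) at the centre. On the heavier side it was 0.949, 0.902, 0.831 and 0.829 (0.819 to 0.839) at the 4 successive peaks, and on the lighter side 0.889, 0.802, 0.724 and 0.707 (0.694 to 0.719). The ratio of H3R2me2s to H3K4me3 moved less. It was 0.421 (0.418 to 0.424) at the centre, 0.412, 0.408, 0.395 and 0.398 on the heavier side, and 0.387, 0.379 (0.373 to 0.385), 0.386 and 0.401 on the lighter one. Net of local background it fell as well, from 0.411 to 0.354 and 0.310, beside 0.976 to 0.817 and 0.672 for the combined mark. Over these positions, as between members, relatively more combined mark thus tended to go with more H3K4me3. Windows with 59236 (heavier side, 700 bp) and 59376 H3K4me3 reads (lighter side, 330 bp) had combined-mark ratios of 0.829 and 0.802. These read counts are sums over members of differing strength. Level, side and distance from the summit were not told apart.

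The 3 marks were often highest on the same nucleosome. The combined-mark summit lay within 75 bp of the H3K4me3 summit in 5086 members, or 60.8% (59.8 to 61.9), and between 75 and 275 bp away, where the next nucleosome lies, in 18.8%. For H3R2me2s these shares were 49.3% (48.2 to 50.4) and 22.2%. Median distances were 20 bp and 80 bp. The distribution of distances had a second maximum near 180 to 200 bp for both marks, and so did H3K4me3 reads set against other H3K4me3 reads. Summits beyond 275 bp, 28.5% of members for H3R2me2s and 20.4% for the combined mark, were spread widely.

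Few reads limit how well a summit can be placed, which the remaining H3K4me3 reads show. Thinned in each member to the number of H3R2me2s reads, they put the summit within 75 bp in 51.8% of members (50.7 to 52.8), beside 49.3% for H3R2me2s itself. Thinned to the number of combined-mark reads they did so in 57.7% (56.6 to 58.7), beside 60.8%. With 1 read per position and strand, H3R2me2s had 46.5% beside 44.0%, so that its order against H3K4me3 turned, and the combined mark had 57.3% beside 50.4%. The combined mark stood above H3K4me3 reads of the same number in these 2 settings, and with reads moved 70 bp (60.8% beside 57.7%) or not moved (51.6% beside 45.9%). H3R2me2s stood below them with reads moved 70 bp (49.5% beside 52.7%) or not moved (39.9% beside 41.6%).

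**Figure D5:**
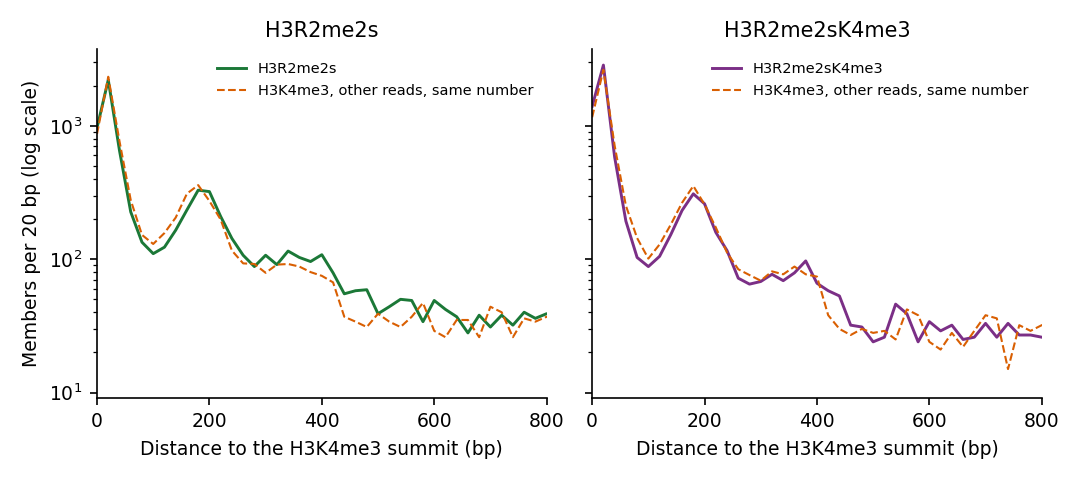
Number of members (y axis, log scale, in steps of 20 bp, the first point holding exact matches only) by distance in bp between the H3K4me3 summit and the summit of H3R2me2s (left) or the combined mark (right). Dashed lines show summits from other H3K4me3 reads thinned to the same number, and all curves have a second maximum near 180 bp.

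The marks also leaned to the same side of the central nucleosome. Between 100 and 1500 bp from the summit, 63.8% of H3K4me3 reads lay on the heavier side, in reads not used to choose it. The shares were 65.7% for the combined mark and 63.3% for H3R2me2s. Member by member, the combined mark had more reads on that side in 83.9% (83.1 to 84.7) and H3R2me2s in 78.4% (77.5 to 79.3). H3K4me3 reads thinned to the same numbers did so in 87.8% (87.0 to 88.4) and 85.5% (84.7 to 86.3), above both arginine marks. The side was set on reads of the H3K4me3 library itself, with repeated reads kept. Copies of a molecule could thus lie both among the reads that chose the side and among those that checked it. These shares were not computed without repeated reads or net of background, which weighs most on H3R2me2s. They therefore do not decide whether the arginine marks follow the side less often than H3K4me3.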

How the data were processed

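Chromatin immunoprecipitation and sequencing had been done on 3 libraries, 1 per antibody. Per the labels' protocols, sonicated chromatin was used, with 15 cycles of PCR and a gel cut from 100 to 500 bp. Per the submitters' processing notes the build was mm9. The aligner is not given in the sources used here, nor is the treatment of repeated reads. Each line of the files that the authors deposited is a mapped read of 39 bases, and reads per bin are therefore unscaled counts. In members, 6.06% of H3R2me2s, 4.34% of combined-mark and 12.3% of H3K4me3 reads repeated a position and strand.

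Bins, regions and classes were computed with Python 3.11.15, numpy 2.4.6, scipy 1.17.1 and pandas 2.3.3, and tested on simulated regions. CPM is reads scaled by the mapped reads of the library. Shares have Clopper-Pearson intervals, ratios of reads exact binomial ones and medians intervals from order statistics. With 1 library per antibody no p-value was computed. Members named are the 5 with most H3K4me3 reads, the 3 highest and 3 lowest for each ratio by the interval bound nearest to 1, and the 3 closest to the median counts among members of 3 bins. The members, lists and settings were chosen with earlier results of these data known, and the level classes, local background, chromosome X, the windows of differing background and the nucleosome profiles were chosen after looking at the data. Gene lists and start sites were not used, as an mm9 annotation was not used here.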

Additional observations from a re-analysis of the deposited data

How the results depend on the processing

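With at least 2 called bins of each arginine mark in place of 1, members numbered 5455 in place of 8365, and under the other settings between 6443 and 9092. Over 13 settings, 70 of 132 recomputed values stayed inside the interval of the reported one or, for the number of members, which has none, within 1.5 times of it. The median ratio of H3R2me2s to H3K4me3, 0.394, was 0.414 with 1 read per position and strand, 0.392 with the limits at 2 times their value, 0.397 with 2 called bins, 0.383 with the libraries thinned to equal depth and 0.249 scaled to background. The combined mark to H3K4me3, 0.810, was 0.851, 0.881, 0.850, 0.843 and 0.665 under the same 5 settings. H3R2me2s to the combined mark, 0.483, was 0.447 with the higher limits, 0.467 with 2 called bins, 0.457 thinned, 0.371 scaled to background and 0.478 over members with at least 30 reads in both libraries. The flank level of H3K4me3, 9.28%, was 10.5% with 1 read per position and strand, 11.9% with the higher limits, 8.50% with 2 called bins, 12.5% thinned, 9.35% with reads moved 150 bp and 9.16% without joining. For H3R2me2s, 14.1%, it was 12.9% with the higher limits, 12.2% with 2 called bins, 14.4% thinned, 13.9% without joining and 13.8% with bin edges moved 500 bp. For the combined mark, 7.13%, it was 7.34%, 7.91%, 6.37% and 8.68% under the first 4 of the H3K4me3 settings and 7.23% with reads moved 150 bp. The share with H3R2me2s highest in the H3K4me3 bin, 84.2%, was 86.1% with the higher limits, 81.7% with 2 called bins, 82.6% thinned and 83.4% with moved edges. For the combined mark, 89.0%, it was 88.2% with 1 read per position and strand and 89.9%, 86.9% and 87.6% under the first 3 of those. The cause of these shifts was not tested. No paired analysis was possible because there was only 1 library per antibody. The share of members at annotated start sites was not run, since an mm9 annotation was not used here. Thin counts limit the H3R2me2s values most.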
